A study of Mus musculus with 35 samples.

Results

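Gene expression in the pancreatic lymph node was compared between 4 weeks and 10 days of age as a ratio of 2 mouse strains. The comparison uses the 6 arrays labelled 4 weeks and the 7 labelled 10 days, chosen by their titles, of 35 arrays in all. Each array carried RNA of female NOD/LtJ mice, inbred animals prone to autoimmune diabetes, in the Cy3 channel, and a control RNA of female NOD.B10Sn-H2b/J (NOD.B10) mice in the Cy5 channel. NOD.B10 is a related strain that carries another haplotype of the major histocompatibility complex (MHC). The labels call the NOD sample of every array diabetic, those of 10 days included, and name no treatment. The series text names groups of 10 NOD.B10 mice each at 10 days and at 20 weeks as the tissue control, and no label says which control RNA was on which array or whether an array held 1 NOD mouse or several. A control difference between ages therefore cannot be told apart from a difference between control RNAs. The control channels of an age may repeat 1 RNA, so their SD may be technical. No array exchanged the dyes, so a dye bias of a gene drops out of the difference only if it was the same at both ages.

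The pancreatic lymph node drains the pancreas and is a place where T cells first meet islet antigens carried by dendritic cells. In the first weeks of life the node fills with lymphocytes that leave the thymus and bone marrow, and the animal passes from suckling to weaning. MHC class I and class II molecules present peptides to CD8 and CD4 T cells, and the class II alleles of NOD are a main part of the diabetes risk of the strain. Type I interferon induces a common set of antiviral genes in most cells. Genes of secreted liver proteins such as alpha-fetoprotein are active in fetal and newborn liver and are not typical of a lymph node.

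Each gene was given a log2 ratio, the NOD signal over the NOD.B10 signal of the same array. A difference is the mean at 4 weeks minus the mean at 10 days and is given with its standard error. A rise can therefore come from more signal in the NOD channel or from less in the control channel, and both were fitted as well: the NOD difference minus the control difference equals the ratio difference. A gene is said to rise or fall where its adjusted p in limma (Benjamini-Hochberg) was under 0.05. The labels do not say that the arrays of an age held RNA of separate animals, so the p-values rest on differences between arrays of an age, and these may be partly technical.

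The ratio differed between the ages for 9660 of 28438 genes (34.0%). It rose for 4459 genes (15.7%) and fell for 5201 (18.3%), and 4040 of the changes (14.2% of all genes) reached 1 on the log2 scale. The NOD channel alone differed for 9073 genes (31.9%) and the control channel alone for 14157 (49.8%). Of the 9660 genes, the control channel had moved more than the NOD channel in 6122 (63.4%) and the NOD channel more in 3538 (36.6%). The control channel alone passed the test in 4365 of them (45.2%), the NOD channel alone in 1790 (18.5%), both in opposite directions in 266 (2.75%), both in the same direction in 1757 (18.2%) and neither in 1482 (15.3%). Among the genes whose ratio fell, the control channel moved more in 72.1%, and among those whose ratio rose in 53.2%. By direction, 16.3% of all genes rose and 15.6% fell in NOD, and 25.9% rose and 23.9% fell in the control. More than 1 probe was called for 1875 genes, and in 507 of these (27.0%) the probes went opposite ways. The value of a gene is that of its brightest probe, and other probes are given for some genes.

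**Figure D1:**
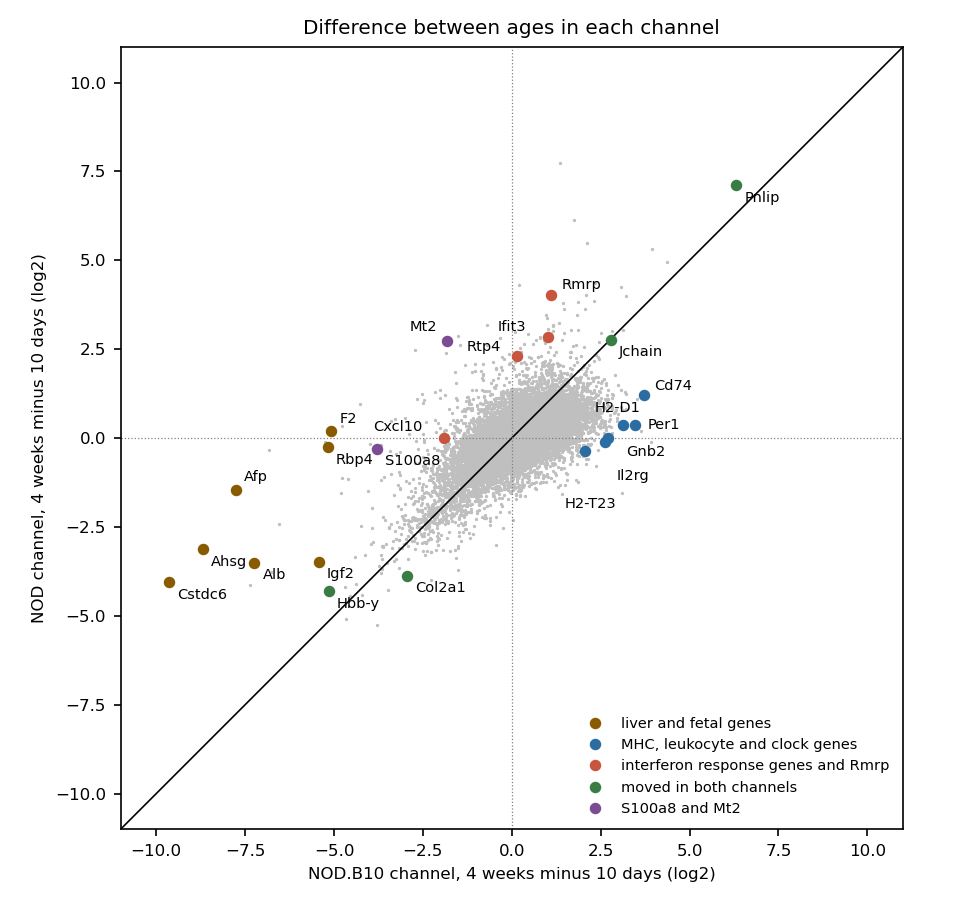
Difference between 4 weeks and 10 days in the NOD.B10 channel (x axis, log2) and in the NOD channel (y axis, log2) for 13030 genes with a symbol, with named genes coloured. Plotted genes were well above background in each channel on at least 1 array of each age. Genes saturated on every array of an age in either channel were left out. Cstdc6 has the colour of the liver and fetal genes but is in none of the lists. The diagonal marks equal change, so genes above it have a higher strain ratio at 4 weeks; Afp lies at -7.76 and -1.45, H2-D1 at 3.14 and 0.38, and Rtp4 at 0.14 and 2.32.

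All 10-day arrays were read on 1 scan day and all 4-week arrays on another, and neither day held an array of another age, so that age and day of scanning cannot be told apart. The image software also differed, version 8.1.1.1 at 10 days and 8.5.1.1 at 4 weeks. Each age was read on 1 scanner, and the scanners were not the same. That of the 10-day arrays read 10 arrays of other ages, and that of the 4-week arrays read 1. Age and scanner can therefore hardly be told apart. A call lost with the scanner as a block does not show a scanner effect on that gene. With scan day as a random block, its correlation estimated over ages whose arrays were read on more than 1 day, 6216 genes passed the threshold in the ratio, 1838 in the control and 10 in NOD. Counts of NOD calls below are those without this block. Of 107 genes followed in the ratio, 5 lost the call with scan day as a block, 16 with the software version and 28 with the scanner. Those lost with the software version or the scanner were Aire, Cd247, Col2a1, Col4a1, Col4a2, Cxcr2, Dbp, Deaf1, Dusp8, Fabp4, Fasn, Fn1, Foxp3, Gbp5, H2-Aa, H2-DMb1, H2-K1, Ifit1, Ifit3, Ifng, Igf2, Inmt, Isg15, Itga2b, Lpl, Ms4a3, Nfil3, Pkdcc, Prdm1, Tap2 and Xbp1. The share of probes well above background was 80.7% to 93.5% for NOD and 71.7% to 90.2% for the control at 10 days, and 69.0% to 85.9% and 42.4% to 49.5% at 4 weeks. The median standard deviation of a gene's ratio between arrays was 0.24 at 10 days and 0.53 at 4 weeks. The T cell list was well above background in 100% of its values in the NOD channel at both ages and the B cell list in 97.8% to 99.4%, so the lymphocyte markers of a lymph node were measured at both ages. The number of arrays limits the precision.

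Among the largest differences were those of secreted liver proteins, which had been far lower in NOD than in the control at 10 days and were near equal at 4 weeks. Of 21 measured members of the liver list the ratio rose in 20 and fell in 0, against 15.7% and 18.3% of all genes. Their median difference was 4.08 against 0.01 over all genes. The change lay mostly in the control channel, where 19 members fell, 1 rose and the median difference was -5.08. In the NOD channel 8 fell, 2 rose and the median was -0.33 (0.06 with each array set to its channel median). Over all genes 23.9% fell and 25.9% rose in the control, and 15.6% fell and 16.3% rose in NOD. The mean log2 signal of the list in the control was 13.09 ± 0.16 (SD, n = 7) at 10 days and 8.46 ± 0.16 (SD, n = 6) at 4 weeks, and 8.69 ± 0.13 (SD, n = 4) and 8.69 ± 0.02 (SD, n = 5) on the arrays of 8 and 20 weeks. In this list the control on the 10-day arrays thus stood apart from the control at these other ages. Other lists differed in this. The erythroid control mean was 12.03 at 10 days, 12.16 at 4 weeks, 9.25 at 8 weeks and 10.66 at 20 weeks. The acinar control mean was 14.09, 15.52, 17.87 and 17.48 at these ages. In the NOD channel the liver list mean was 9.60 ± 1.13 at 10 days, with 10-day replicate 3 highest at 11.94, and 8.84 ± 0.63 at 4 weeks. Control probes of this list were well above background in 99.3% of values at 10 days and 46.0% at 4 weeks. In at least 1 channel and age, 11 members had no array well above background or only saturated arrays. The other 10 were well above background on at least 1 array of each age in each channel, and 9 of them rose in ratio, with a median of 4.52.

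Afp, alpha-fetoprotein, the main plasma protein of the fetus, had a ratio that ran from -7.73 to -3.62 at 10 days, with a median of -6.97, and from -0.50 to 0.60 at 4 weeks, with a median of -0.25. The groups did not overlap, which held for 17.8% of all genes, and 10-day replicates 3 and 7 were the least low of their group. The difference was 6.31 ± 0.45 (adjusted p = 1.59e-12), with -7.76 in the control, a 217-fold fall, and -1.45 in NOD (adjusted p = 0.694 with scan day as a block). Without 10-day replicate 3 the ratio difference was 6.78. Alb, albumin, the main plasma protein after birth, was measured on 6 arrays at each age. Its ratio ran from -5.48 to -1.39 at 10 days, with a median of -4.21, and from -2.83 to 1.55 at 4 weeks, with a median of -0.17, so the groups overlapped. The difference was 3.74 ± 0.67 (adjusted p = 4.76e-05), from -7.24 in the control and -3.51 in NOD (adjusted p = 0.472 with the block).

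Other members moved alike. Ahsg, fetuin A, a carrier of calcium phosphate in plasma, rose by 5.57 ± 0.74 in ratio (control -8.70, NOD -3.13) and F2, prothrombin, by 5.28 ± 0.50 (control -5.08, NOD 0.20). Rbp4, the plasma carrier of retinol, rose by 4.92 ± 0.61 (control -5.18, NOD -0.26) and Fgb, the beta chain of fibrinogen, by 4.12 ± 0.51 (control -6.54, NOD -2.42). Itih3, a hyaluronan-binding plasma protein, rose by 3.08 ± 0.28. Ambp, the precursor of alpha-1-microglobulin, rose by 6.51 ± 0.85, but its groups overlapped because 4-week replicate 5 was at -3.01 while the other 4-week arrays were between 1.95 and 3.51. Liver genes outside the list did the same: Fabp1, a fatty acid carrier, rose by 5.22 ± 0.47, Fbp1, an enzyme of gluconeogenesis, by 5.15 ± 0.46, Serpinc1, antithrombin, by 3.66 ± 0.39 and Agt, angiotensinogen, by 3.56 ± 0.52. Each of these 4 fell in the control, with differences of -4.28, -5.27, -4.77 and -3.0. Igf2, the fetal growth factor, fell by 5.43 in the control and differed by -3.48 in NOD (adjusted p = 0.122 with the block), which left a ratio difference of 1.95 ± 0.37. Cstdc6, a cystatin-domain gene, is in neither the liver list nor any other list. Its ratio ranged from -4.05 to -0.99 at 10 days and from 1.92 to 4.91 at 4 weeks, a difference of 5.60 ± 0.43 (adjusted p = 7.97e-12). Its control signal fell by 9.64, and its NOD signal differed by -4.05.

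The windows from 250 bases before to 50 bases after the RefSeq start of Afp (chr5:90490464-90490763, plus strand) and Alb (chr5:90460620-90460919, plus strand; build GRCm38.p6) are shown because these 2 genes encode the main plasma proteins before and after birth and fell 217-fold and 151-fold in the control, with the letters GTTAAT, the repeat unit of the motif bound by the hepatocyte factor HNF1, in capitals. The sequences are of the reference strain, not of NOD.
Afp: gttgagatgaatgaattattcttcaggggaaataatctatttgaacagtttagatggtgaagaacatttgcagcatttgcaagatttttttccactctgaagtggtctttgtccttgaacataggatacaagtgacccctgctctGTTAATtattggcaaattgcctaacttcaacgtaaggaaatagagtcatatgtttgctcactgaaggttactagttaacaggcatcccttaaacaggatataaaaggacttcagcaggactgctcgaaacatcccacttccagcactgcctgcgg
Alb: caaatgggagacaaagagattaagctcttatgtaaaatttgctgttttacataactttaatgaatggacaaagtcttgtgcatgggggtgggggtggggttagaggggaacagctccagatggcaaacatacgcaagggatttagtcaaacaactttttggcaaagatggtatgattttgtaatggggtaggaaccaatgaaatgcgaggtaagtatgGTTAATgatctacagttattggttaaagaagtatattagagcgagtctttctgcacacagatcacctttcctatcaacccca
Searched on both strands, GTTAAT was in 7 of the 17 liver list genes that had such a window, Afp, Alb, F2, Fga, Fgb, Igfbp1 and Vtn, and in 8.24% of 27025 genes. A match describes these letters only.

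**Figure D2:**
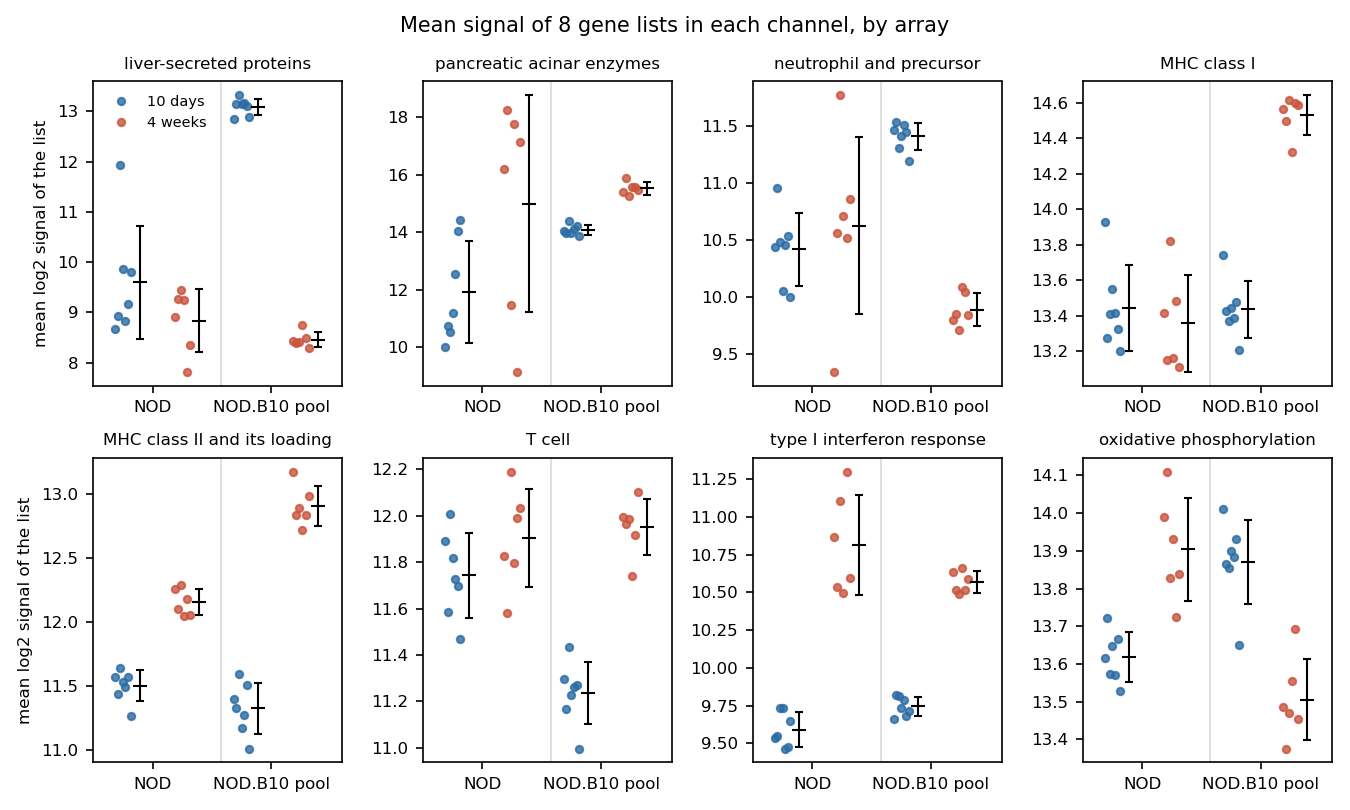
Mean log2 signal of 8 gene lists in the NOD and the NOD.B10 channel, by array (10 days blue, n = 7; 4 weeks red, n = 6; horizontal mark and bar, mean and SD). The liver list falls from 13.09 to 8.46 in the control, the MHC class I list rises there from 13.44 to 14.53, and the acinar list spreads from 9.14 to 18.25 between the 4-week NOD samples.

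Genes of the exocrine pancreas differed widely between NOD samples of one age. The acinar list holds the digestive enzymes of the exocrine pancreas, which lies next to the node. None of its 22 measured members passed the test in the ratio in limma, 3 had an unadjusted p under 0.05, and the median difference was 1.60. Its mean ratio on the 10-day arrays ran from -4.03 to 0.54 and on the 4-week arrays from -6.43 to 2.37. In the NOD channel 4-week replicates 3 and 5 were low, at 11.48 and 9.14, and the other 4 lay between 16.19 and 18.25. In the control the list mean rose from 14.09 ± 0.17 (SD, n = 7) to 15.52 ± 0.21 (SD, n = 6). Pnlip, pancreatic lipase, differed by 6.30 in the control and 7.11 in NOD, and its ratio by 0.81 ± 1.73. Cela1, an elastase, differed in ratio by 0.59 ± 1.59, Cela2a, another, by 0.77 ± 1.28 and Gp2, the zymogen granule glycoprotein, by 1.36 ± 1.33, and none of the 4 passed the test.

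Of 21 measured genes of the islet list the ratio rose in 8 and fell in 2 (median 0.77, 0.26 with normexp and loess), against 15.7% and 18.3% of all genes. In at least 1 channel and age, 15 of them had no array well above background or only saturated arrays. The other 6 were well above background on at least 1 array of each age in each channel, and 5 rose and 0 fell. Control values of the list were well above background in 91.0% at 10 days and 18.3% at 4 weeks. Ins2, the main mouse insulin gene, had a ratio that ran from -4.33 to -1.24 at 10 days, with a median of -3.59, and from -2.52 to 4.5 at 4 weeks, with a median of 3.63. The groups overlapped: 4-week replicates 3 and 5, the same arrays that were low in acinar signal, were at -1.03 and -2.52, and the other 4 between 3.58 and 4.5. The difference was 5.19 ± 1.15 (adjusted p = 0.000609) and 4.22 with the acinar mean as a covariate. Ins1, the other insulin gene, rose by 3.77 ± 0.92, also with overlapping groups, and at 4 weeks 1 of its 6 control signals was well above background. The 2 insulin genes are near copies, and their probes may share target. Gcg, glucagon, was not well above background in the control on any 4-week array, and its control signal was at least 11.8-fold higher at 10 days; a second probe of the gene had a ratio difference of -0.59. The acinar signal moved with these islet values, and its part in them was not tested further.

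Genes of neutrophils and their precursors also rose in ratio, with most of the change in the control channel. Of 17 measured members 13 rose and 0 fell, against 15.7% and 18.3% of all genes, with a median of 1.75 against 0.01 over all genes. In the control 11 fell and 1 rose (median -1.82), and in NOD 1 rose and 0 fell (median 0.22). Over all genes 23.9% fell and 25.9% rose in the control, and 16.3% rose and 15.6% fell in NOD. The mean control signal of the list was 11.41 ± 0.12 (SD, n = 7) at 10 days and 9.89 ± 0.14 (SD, n = 6) at 4 weeks. The NOD signal of the 4-week arrays ran from 9.34 in replicate 1 to 11.77 in replicate 3. In bulk RNA, fewer cells of a type and less RNA per cell cannot be told apart.

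S100a8, a subunit of calprotectin, the main cytosolic protein of neutrophils, had a ratio that ran from -2.37 to -0.85 at 10 days, with a median of -1.96, and from -0.69 to 3.59 at 4 weeks, with a median of 1.61. The groups did not overlap, although 4-week replicate 1, at -0.69, lay close to the highest 10-day array. The difference was 3.5 ± 0.55 (adjusted p = 5.39e-06), with -3.80 in the control and -0.30 in NOD. Its partner S100a9 rose by 3.49 ± 0.49. Chil3, a chitinase-like protein of myeloid cells, rose by 3.54 ± 0.56 and Ms4a3, a marker of granulocyte precursors, by 2.37 ± 0.36. Cxcr2, the chemokine receptor that draws neutrophils to tissue, rose by 1.75 ± 0.26, with 1.01 in NOD and -0.74 in the control, and by 0.69 (not past the threshold) at its second probe. Wfdc21, a small secreted protein of the whey acidic protein family, rose by 3.82 ± 0.45 (control -3.27). Mt2, a metallothionein that binds zinc and copper, had a ratio that ran from -2.98 to -0.65 at 10 days, with a median of -2.35, and from -0.35 to 4.26 at 4 weeks, with a median of 2.61. Replicates 3 and 5 were again the lowest of the 4-week arrays, and 10-day replicate 7 the highest of its group. The difference was 4.55 ± 0.78 (adjusted p = 2.64e-05), and 3.76 with the acinar mean as a covariate.

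In their list mean, MHC class I genes were near equal between the strains at 10 days and lower in NOD than in the control at 4 weeks. Members did not all move this way, and their ratio differences ran from -2.76 to 0.63. The mean ratio of the list was 0.01 ± 0.13 (SD, n = 7) at 10 days and -1.17 ± 0.23 (SD, n = 6) at 4 weeks, and the groups did not overlap. Of 14 measured members the ratio fell in 9 and rose in 3 (median -1.44, all genes 0.01), against 18.3% and 15.7% of all genes. The NOD mean was 13.44 ± 0.24 and then 13.36 ± 0.27, while the control rose from 13.44 ± 0.16 to 14.53 ± 0.11. The class I heavy chain genes are near copies of each other on chromosome 17, and some may differ between the haplotypes of the 2 strains. The value of a single member is therefore uncertain.

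H2-D1, a classical class I heavy chain, had a ratio that ran from 0.01 to 0.57 at 10 days, with a median of 0.17, and from -3.0 to -1.97 at 4 weeks, with a median of -2.61. All 6 arrays at 4 weeks were below all 7 at 10 days, and the difference was -2.76 ± 0.16 (adjusted p = 7.97e-14). The control rose by 3.14, an 8.81-fold change, and NOD differed by 0.38 (adjusted p = 0.337). H2-K1, another classical heavy chain, differed mostly in the NOD channel. Its ratio ran from 0.15 to 0.68 at 10 days, with a median of 0.48, and from -1.22 to -0.31 at 4 weeks, with a median of -0.73, a difference of -1.19 ± 0.25 (adjusted p = 0.000405) with -1.01 in NOD and 0.18 in the control. Its probe was saturated in NOD on 1 array at each age. The call for H2-K1 was lost with the image software version (adjusted p = 0.118) or the scanner (adjusted p = 0.147) as a block. Among nonclassical members H2-T23, the ligand of CD94 and NKG2 receptors, fell by 2.44, H2-M2 by 2.35 and H2-Q10 by 2.37, though 1 of 5 probes of H2-Q10 had a difference of 0.04.

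The genes that load class I molecules moved in the same direction in part. Of 12 measured, 6 fell and 2 rose in ratio (median -0.49), against 18.3% and 15.7% of all genes. Tap1 and Tap2, which form the peptide transporter, fell by 1.98 ± 0.26 and 1.98 ± 0.24. Their control differences were 2.15 and 0.98 and their NOD differences 0.17 and -1.0. Tapbp, tapasin, fell by 1.39 and Psme1, a proteasome activator subunit, by 1.30. Ube2l6, the conjugating enzyme of ISG15, fell by 2.80. The call for Tap2 was lost with the scanner as a block (adjusted p = 0.0999).

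MHC class II genes were higher on the 4-week arrays in both channels, and more so in the control. In the control 13 of 16 members rose and 0 fell (median 1.62), and in NOD 7 rose and 0 fell (median 0.69), against 25.9% and 16.3% of all genes rising. The ratio fell in 9 and rose in 1 (median -0.87), against 18.3% and 15.7% of all genes. The mean ratio of the list went from 0.17 ± 0.11 (SD, n = 7) to -0.75 ± 0.14 (SD, n = 6) with no overlap of the groups. Cd74, the invariant chain that guides class II molecules, had a ratio that ran from -0.06 to 0.37 at 10 days, with a median of 0.16, and from -2.51 to -2.17 at 4 weeks, with a median of -2.28. The difference was -2.49 ± 0.16 (adjusted p = 1.95e-13), with 3.71 in the control and 1.22 in NOD (adjusted p = 0.509 with scan day as a block).

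H2-Ab1, the beta chain of I-A, fell by 1.80 ± 0.15 in ratio and H2-Eb1, the beta chain of I-E, by 1.67 ± 0.22. H2-DMb1 and H2-DMb2, which help to exchange peptides, fell by 1.82 and 1.88. H2-Aa, the alpha chain of I-A, had overlapping groups, and its difference of -0.76 ± 0.29 (adjusted p = 0.0377) lost the call without any 1 of 10-day replicates 1, 4, 5 and 6 or 4-week replicates 1, 5 and 6, with an adjusted p of up to 0.0985, and with scan day as a block (adjusted p = 0.129). A second probe of H2-Aa had a ratio difference of -2.39 (adjusted p = 5e-07) and a control difference of 2.35. Irf8, a transcription factor of dendritic cells and B cells, fell by 1.47. Of 19 macrophage genes 8 fell and 2 rose (median -0.09), against 18.3% and 15.7% of all genes. C1qa, a chain of complement C1q, fell by 1.95 (NOD 1.25, control 3.2) and Csf1r, the receptor of macrophage growth factor, by 1.60 (NOD 1.1, control 2.70). A second probe of Csf1r had a difference of 0.54 and another one of -1.96. Of 18 dendritic cell genes 7 fell and 2 rose (median -0.22).

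Many lymphocyte genes fell in ratio. None of 26 T cell genes rose and 15 fell (median -0.60), and of 23 B cell genes 10 fell and 2 rose (median -0.30), against 18.3% of all genes falling. The T cell mean was higher in NOD than in the control at 10 days, with a ratio of 0.51 ± 0.08 (SD, n = 7), and near equal at 4 weeks, at -0.05 ± 0.21 (SD, n = 6). Its control signal rose from 11.24 ± 0.13 to 11.95 ± 0.12, and its NOD signal was 11.74 ± 0.18 and then 11.90 ± 0.21. The B cell ratio went from 0.16 ± 0.09 to -0.38 ± 0.20.

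In T cells, Satb1, a chromatin organiser of thymocytes and T cells, fell by 1.57 ± 0.19, Zap70, the kinase of the T cell receptor, by 1.53 ± 0.19 and its adaptor Lat by 0.95 ± 0.13. Cd247, the zeta chain, fell by 1.04, but 2 of its 4 probes differed by 0.96 and 0.34. In B cells, Blk, a Src family kinase, fell by 2.98 ± 0.35, with -1.57 in NOD and 1.41 in the control. Fcmr, the receptor of IgM, fell by 1.60 (NOD 1.07, control 2.66), Ltb, lymphotoxin beta, which organises lymphoid tissue, by 1.63, and Spib, a B cell transcription factor, fell by 1.43 over 5 of the 4-week arrays. At 4 weeks 3 of the 6 NOD signals of Blk were well above background.

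Genes used by leukocytes in general were among the largest falls. Il2rg, the common gamma chain of several cytokine receptors, had a ratio that ran from 0.41 to 0.93 at 10 days, with a median of 0.79, and from -2.57 to -1.44 at 4 weeks, with a median of -1.92. The difference was -2.73 ± 0.20 (adjusted p = 3.75e-12), with 2.61 in the control and -0.12 in NOD. Gnb2, a beta subunit of G proteins, had a ratio that ran from 0.39 to 0.85 at 10 days, with a median of 0.67, and from -2.18 to -1.80 at 4 weeks, with a median of -2.06. The arrays of each age lay close together and the difference was -2.69 ± 0.12 (adjusted p = 1.79e-16), with 2.70 in the control and 0.01 in NOD. Coro1a, an actin-binding protein of leukocytes, fell by 2.68 ± 0.16, and Fermt3, kindlin 3, which activates integrins, fell by 2.77 ± 0.17. Madcam1, the addressin of high endothelial venules, fell by 1.87. In ratio 13 of 19 endothelial genes fell and 2 rose (median -0.59), against 18.3% and 15.7% of all genes.

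**Figure D3:**
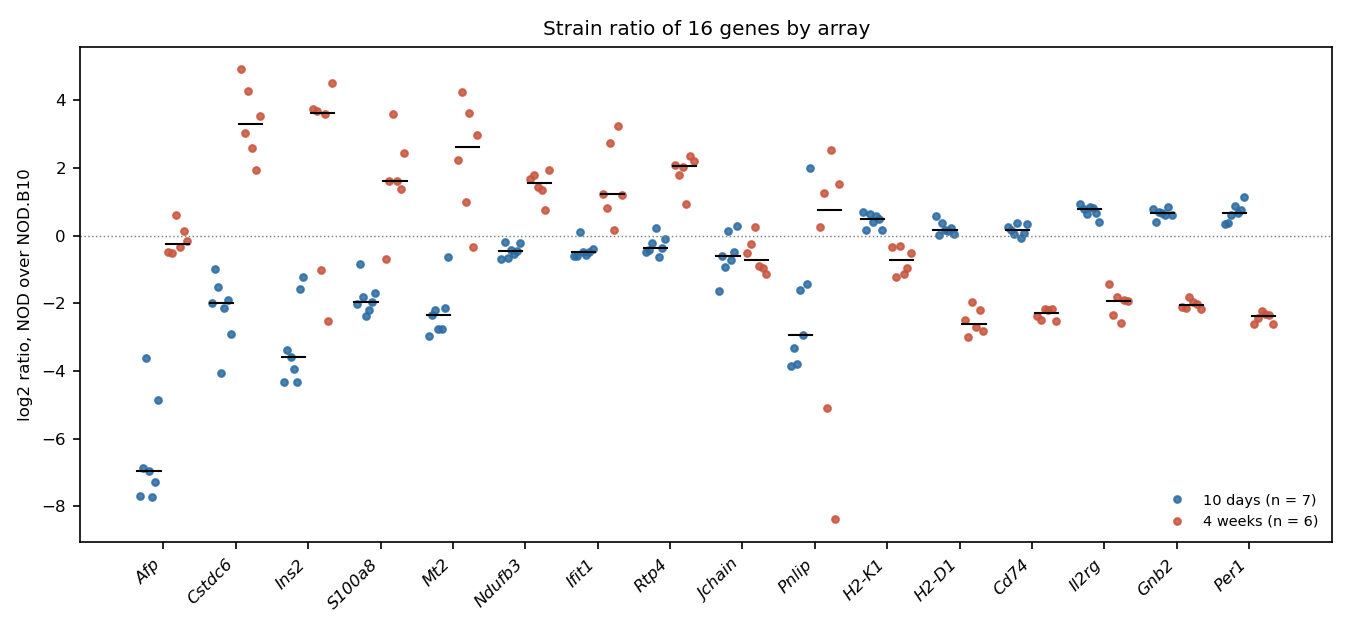
Log2 ratio of NOD over NOD.B10 (y axis) of 16 genes on each array, 10 days in blue (n = 7) and 4 weeks in red (n = 6), with the median of each age as a bar. Gnb2 and Per1 form tight separate groups, Ins2 and Pnlip overlap through 4-week replicates 3 and 5, and Jchain has medians of -0.60 and -0.71.

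Some clock, stress and early response genes fell in ratio. Per1, a repressor of the circadian clock that is also induced by glucocorticoids, had a ratio that ran from 0.33 to 1.15 at 10 days, with a median of 0.68, and from -2.61 to -2.22 at 4 weeks, with a median of -2.38. No array of one age reached the other, and the difference was -3.10 ± 0.32 (adjusted p = 2.93e-09), with 3.46 in the control and 0.36 in NOD. Dbp, a clock output factor, fell by 1.63, and Nfil3, which binds the same sites as a repressor, rose by 1.27 (control -1.63). In the lists, 8 of 17 clock genes fell and 2 rose (median -0.38; -0.58 without 4-week replicate 1 and -0.03 with normexp background correction and loess), against 18.3% and 15.7% of all genes. The immediate early list had 10 of 25 falls and 2 rises (median -0.51), the glucocorticoid list 7 of 14 and 2 (median -0.55), and the heat shock list 7 of 16 and 1 (median -0.63). Hsp90ab1, a constitutive chaperone, fell by 2.36. The hour at which nodes were taken is not given in the labels.

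The largest fall was that of Dusp8, a phosphatase of MAP kinases. Its ratio ran from -0.11 to 0.44 at 10 days, with a median of 0.09, and from -6.41 to -1.63 at 4 weeks, with a median of -4.99. The 4-week arrays were far apart from one another, and the control signal alone ran from 8.51 to 14.47 among them. The difference was -4.65 ± 0.46 (adjusted p = 1.86e-09 in limma), but this error pools the spread of all ages and understates that of the 4-week arrays. The second probe of the gene had a difference of -0.47, and the call was lost with the scanner as a block (adjusted p = 0.0864). Sbno2, a transcriptional coregulator, fell by 3.44, with -0.49 at its second probe. Srrt, which works in small RNA processing, fell by 3.17, Gigyf1, a GYF domain protein, by 2.83 (-0.09 at its second probe), Sin3b, a scaffold of histone deacetylases, by 2.75 (-0.24 at its second probe), Pkdcc, a secreted kinase, differed by -2.73 and Itga2b, the platelet integrin alpha chain, by -2.73, and all of these passed the test. In each of these 7 genes the control difference, 1.55 to 3.65, was larger in size than the NOD difference. Eef2, a translation elongation factor, rose in the control by 3.22 and fell in ratio by 2.41, though 1 of its 3 probes differed by 0.18. Inmt, a methyltransferase, rose in the control by 3.67, and its ratio difference of -1.22 ± 0.42 lost the call without 4-week replicate 1 (adjusted p = 0.0726).

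Type I interferon response genes were higher on the 4-week arrays in both channels, and some rose more in NOD. In NOD 18 of 25 measured members rose and 0 fell (median 1.18), and in the control 15 rose and 0 fell (median 0.81). Over all genes 16.3% rose in NOD and 25.9% in the control. The ratio rose in 7 and fell in 0 (median 0.23, all genes 0.01), against 15.7% of all genes rising. The mean NOD signal of the list was 9.59 ± 0.11 (SD, n = 7) at 10 days and 10.81 ± 0.33 (SD, n = 6) at 4 weeks. Among the 4-week NOD samples replicate 5 was highest at 11.30, then replicate 3 at 11.10 and replicate 1 at 10.87, and replicates 3 and 5 are those with the lowest acinar signal. In the ratio, 1 member remained past the threshold with the scanner as a block, and 4 did with scan day. Fewer of all genes passed under these blocks as well, as counted in the closing section.

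The windows around the RefSeq starts of Ifit1 (chr19:34640639-34640938, plus strand) and Isg15 (chr4:156200769-156201068, minus strand; build GRCm38.p6, reference strain) are shown because both genes rose in NOD, with matches to GAAANNGAAA, the interferon-stimulated response element, on either strand in capitals.
Ifit1: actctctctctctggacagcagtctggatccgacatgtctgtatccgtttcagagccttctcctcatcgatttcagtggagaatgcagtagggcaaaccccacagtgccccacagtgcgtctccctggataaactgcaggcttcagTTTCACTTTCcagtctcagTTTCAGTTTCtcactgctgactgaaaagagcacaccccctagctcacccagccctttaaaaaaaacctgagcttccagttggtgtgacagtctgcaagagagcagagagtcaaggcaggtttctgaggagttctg
Isg15: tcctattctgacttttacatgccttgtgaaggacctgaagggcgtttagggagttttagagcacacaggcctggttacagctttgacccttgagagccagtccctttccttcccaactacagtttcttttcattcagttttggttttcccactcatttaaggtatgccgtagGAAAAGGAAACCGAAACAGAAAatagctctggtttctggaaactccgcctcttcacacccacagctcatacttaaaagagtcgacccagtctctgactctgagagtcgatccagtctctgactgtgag
Ifit1 held 2 matches and Isg15 held 3 that overlap each other. Of 18 list genes with a window 10 held a match, against 3.99% of 27025 genes, and a match does not show binding.

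Rtp4, an interferon-induced chaperone of receptors, had a ratio that ran from -0.64 to 0.23 at 10 days, with a median of -0.37, and from 0.94 to 2.34 at 4 weeks, with a median of 2.05. All 4-week arrays were above all 10-day arrays, with 4-week replicate 4 the lowest of its group. The difference was 2.18 ± 0.30 (adjusted p = 8.58e-07) and lay in NOD, 2.32 against 0.14 in the control (NOD adjusted p = 0.215 with scan day as a block). Ifit1, which binds foreign RNA, had a ratio that ran from -0.61 to 0.09 at 10 days, with a median of -0.50, and from 0.15 to 3.23 at 4 weeks, with a median of 1.21. Replicates 5 and 3 were highest at 4 weeks and the groups were separated by little. The difference was 2.0 ± 0.33 (adjusted p = 1.53e-05), 2.03 in NOD (adjusted p = 0.405 with the block) and 0.03 in the control, and the call on the ratio was lost with the scanner as a block (adjusted p = 0.144). Ifit3 rose by 1.82 ± 0.37 and Isg15, the ubiquitin-like modifier, by 1.49 ± 0.30. Their NOD differences were 2.83 and 2.57 (adjusted p = 0.368 and 0.209 with scan day as a block) and their control differences 1.02 and 1.08. With the acinar mean as a covariate the ratio differences of Rtp4, Ifit1, Ifit3 and Isg15 were 2.23, 2.22, 1.90 and 1.49. With the scanner as a block Ifit3 and Isg15 lost the call (adjusted p = 0.14 and 0.0582).

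Of 20 genes of the interferon gamma response 4 rose and 3 fell (median -0.14, 0.01 with normexp background correction), near the 15.7% and 18.3% of all genes. Cxcl10, a chemokine for activated T cells, rose by 1.91 ± 0.27, with -1.90 in the control and 0.01 in NOD. Gbp5, a guanylate-binding protein, rose by 1.17 ± 0.28 and Ifng, interferon gamma itself, by 1.0 ± 0.29 (NOD 1.82, control 0.82), with 0.20 at a second probe of Ifng. Both lost the call with the image software version as a block (adjusted p = 0.178 and 0.0853). At 4 weeks 4 of the 6 control signals of Ifng were well above background.

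Genes of oxidative phosphorylation, which encode the respiratory chain, rose in ratio. Of 54 measured members 34 rose and 6 fell (median 0.62, all genes 0.01), against 15.7% and 18.3% of all genes. The mean ratio of the list was -0.25 ± 0.09 (SD, n = 7) at 10 days and 0.40 ± 0.23 (SD, n = 6) at 4 weeks, and the groups did not overlap. In the control 22 fell and 7 rose (median -0.19), and in NOD 15 rose and 7 fell (median 0.43). Over all genes 23.9% fell and 25.9% rose in the control, and 16.3% rose and 15.6% fell in NOD. The sign of the control median depends on the scaling, since it was 0.79 when each array's channel was set to its own median. Under that scaling the median difference of all genes was 0.37 in NOD and 0.38 in the control, against 0.043 and 0.0056 without it. It was applied to each channel alone, and the ratio does not use it. Ndufb3, a subunit of complex I, had a ratio that ran from -0.69 to -0.20 at 10 days, with a median of -0.44, and from 0.75 to 1.93 at 4 weeks, with a median of 1.55, so that the groups were apart. The difference was 1.94 ± 0.15 (adjusted p = 8.73e-12), with -1.44 in the control and 0.50 in NOD. Uqcrb of complex III rose by 1.67 ± 0.16 and Cox6c of complex IV by 1.61 ± 0.16. Cox7b rose by 2.11 ± 0.21, but its other 2 probes differed by -0.27 and -0.32.

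Of 44 genes of cytosolic ribosomal proteins 14 rose and 5 fell (median 0.06), against 15.7% and 18.3% of all genes. Rpl23, of the large subunit, ranged from -0.58 to -0.17 at 10 days and from 0.78 to 0.99 at 4 weeks. Its difference was 1.23 ± 0.09 (adjusted p = 5.79e-12), with -1.27 in the control and -0.04 in NOD. Rpl37 rose by 1.89 ± 0.18, with -0.45 at its second probe. Rmrp, the RNA of RNase MRP, rose by 2.93 ± 0.44, 4.03 in NOD (adjusted p = 0.174 with scan day as a block) and 1.1 in the control. Actb, beta actin, fell in ratio by 1.13 ± 0.19, with -2.10 in NOD and -0.97 in the control, and was measured on 6 of the 10-day arrays.

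Some genes moved far in both channels and little in ratio. Plasma cell genes rose in NOD in 10 of 12 and in the control in 8, against 16.3% and 25.9% of all genes. In ratio 5 rose and 2 fell (median 0.25; 0.016 with normexp and loess), against 15.7% and 18.3%. Jchain, which joins IgM and IgA into polymers, differed by 2.76 in NOD (adjusted p = 0.118 with scan day as a block) and 2.78 in the control. Its ratio ran from -1.65 to 0.28 at 10 days, with a median of -0.60, and from -1.12 to 0.25 at 4 weeks, with a median of -0.71, and the difference was -0.02 ± 0.25 (adjusted p = 0.972). Derl3, of protein quality control in secretory cells, rose in ratio by 1.80 ± 0.45 and Prdm1, the plasma cell regulator Blimp-1, by 0.85 ± 0.20, whereas Xbp1, the factor of the unfolded protein response, fell by 1.11 (NOD 1.54, control 2.65). Ighg1, the IgG1 heavy chain, rose in the control by 3.52 and fell in ratio by 2.42; 4-week replicate 3 was at -0.09 and the other 4-week arrays between -2.94 and -2.38.

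Hbb-y, the embryonic beta globin, differed by -4.31 in NOD (adjusted p = 0.118 with scan day as a block) and -5.15 in the control, and by 0.84 ± 0.37 in ratio (adjusted p = 0.0803). Col2a1, the cartilage collagen, differed by -3.87 in NOD (adjusted p = 0.0937 with the block) and -2.95 in the control. Its ratio difference of -0.92 ± 0.34 (adjusted p = 0.037) lost the call without any 1 of 8 of the 13 arrays, with an adjusted p of up to 0.124. Extracellular matrix genes fell in NOD in 15 of 24 and in the control in 14 (medians -0.94 and -0.60), against 15.6% and 23.9% of all genes. With each array set to its channel median, 4 fell and 3 rose in NOD (median -0.19) and 3 fell and 6 rose in the control (median 0.07). In ratio 7 fell and 3 rose (median -0.23), against 18.3% and 15.7% of all genes. Col4a1 and Col4a2, of basement membrane, fell in ratio by 0.82 and 1.25 with NOD differences of -0.83 and -0.89. A second probe of each gave -1.47 and -2.25 in ratio, with control differences of 1.24 and 2.20 and NOD differences of -0.23 and -0.05, so the channel that differed depended on the probe. Fn1, fibronectin, fell by 2.22, with 0.03 at 1 of its 3 probes. Of 44 cell cycle genes 15 fell and 0 rose in ratio (median -0.34), against 18.3% and 15.7% of all genes. With normexp and loess 15 fell and 4 rose (median -0.18). In NOD 15 fell and 1 rose (median -0.49), but 5 fell and 4 rose with each array set to its channel median (median 0.15). Of 24 imprinted and growth genes 9 rose and 4 fell in ratio (median 0.39), against 15.7% and 18.3% of all genes. There were 13 falls in the control and 13 in NOD, against 23.9% and 15.6% of all genes.

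Adipocyte genes rose in 11 of 20 in NOD and 11 in the control, against 16.3% and 25.9% of all genes. In ratio 3 rose and 3 fell (median 0.38, or 0.20 with normexp and loess), near the shares of all genes. Fabp4, the fatty acid carrier of adipocytes, rose by 2.32 ± 0.52 with overlapping groups, Lpl, lipoprotein lipase, by 1.78 ± 0.39 with -0.36 at its second probe, and Fasn, fatty acid synthase, fell by 1.49 (control 2.97), with -0.48 at its second probe. Erythroid genes fell in ratio in 4 of 15 and rose in 0 (median -0.92, -0.29 with normexp and loess), against 18.3% of all genes falling. The NOD means of 4-week replicates 5 and 6, 9.14 and 9.43, were below those of the other 11 arrays, which began at 10.27.

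The other lists are read against 15.7% of all genes rising and 18.3% falling in ratio. The regulatory T cell list had 1 rise and 4 falls among 14 genes (median -0.22), the NK and cytotoxic list 1 and 3 among 16 (-0.08), the germinal centre list 1 and 1 among 10 (0.00), and the thymocyte list 2 and 1 among 10 (0.16). Lymphoid chemokines and receptors had 5 rises and 4 falls among 19 (0.22). Node fibroblasts and follicular dendritic cells had 3 and 5 among 16 (-0.28), and lymphatic endothelium 1 and 2 among 9 (-0.08). Epithelium and duct had 4 rises and 0 falls among 19 (0.63), mast cells and eosinophils 2 and 2 among 13 (0.11), muscle 2 and 3 among 15 (0.08), and nerve and glia 2 and 2 among 14 (0.42). The plot of list members by direction shows all lists in each channel.

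**Figure D4:**
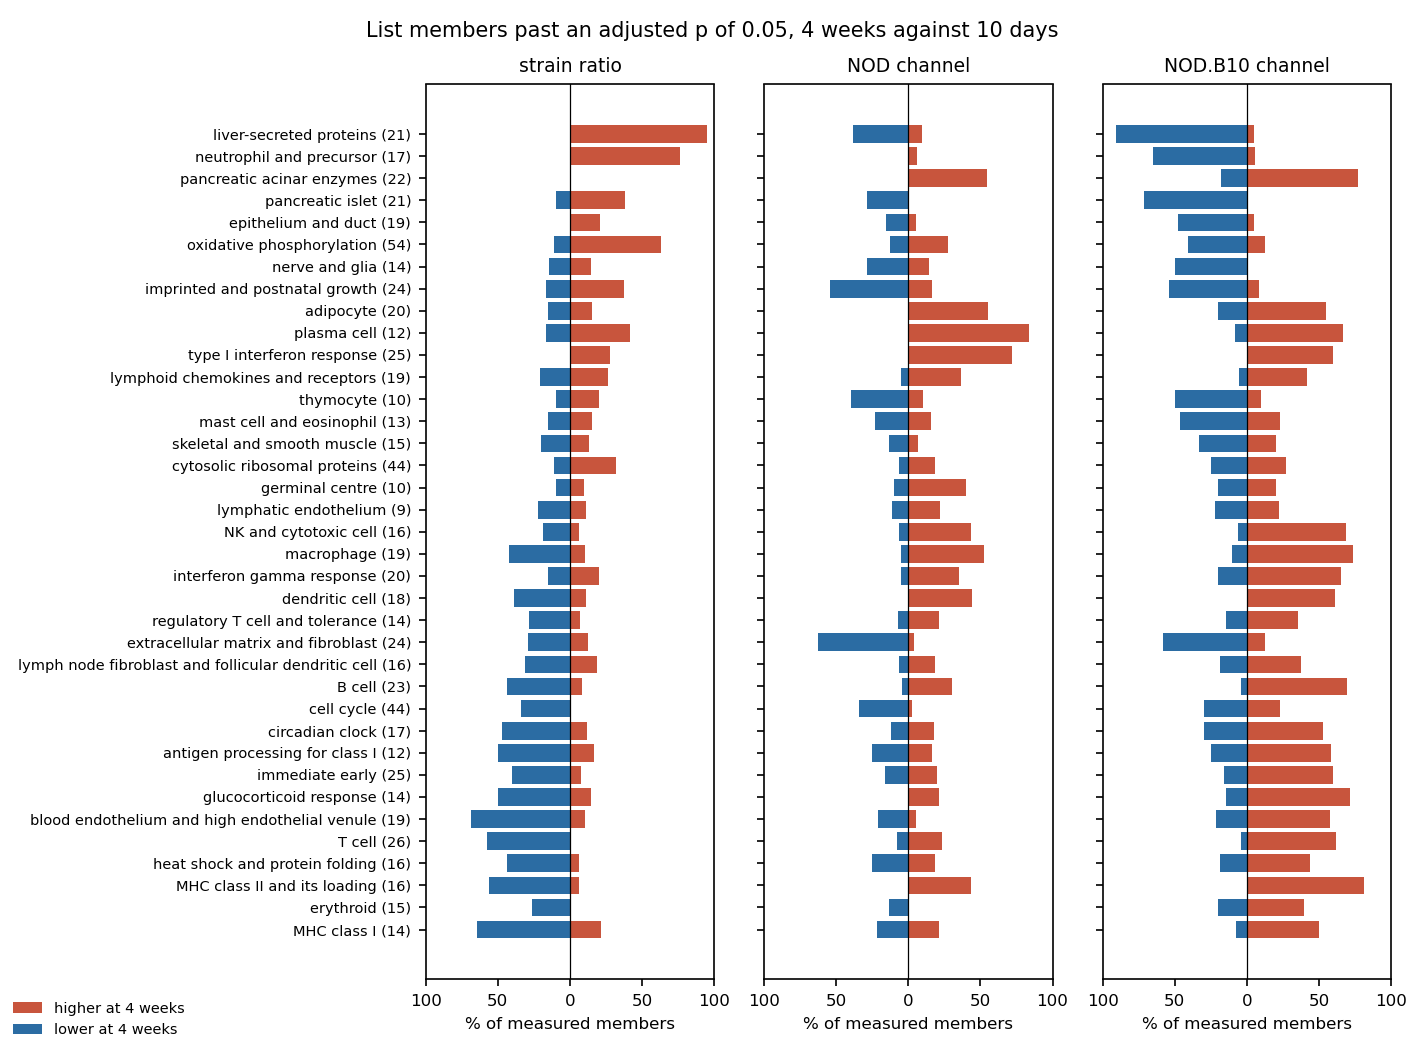
Share of the measured members of each of 37 lists (number in brackets) past an adjusted p of 0.05, in percent, for the ratio, the NOD channel and the NOD.B10 channel; red bars to the right are higher and blue bars to the left lower at 4 weeks, sorted by the median ratio difference. The liver list stands at the top with 20 of 21 members higher in ratio and 19 lower in the control, and the MHC class I list at the bottom with 9 of 14 lower in ratio.

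Genes known for roles in tolerance and T cell regulation were described one by one. Aire, which drives tissue antigens in the thymus and in some node cells, fell in ratio by 0.78 ± 0.21 (adjusted p = 0.00324), with overlapping groups and 0.88 in the control. Deaf1, a regulator of tissue antigens in node stroma, had a ratio that ran from -2.76 to -0.13 at 10 days, with a median of -2.10, and from -2.16 to 4.40 at 4 weeks, with a median of 1.86, over 6 arrays at each age. Replicates 3 and 5 were again low at 4 weeks, and the groups overlapped. The difference was 3.14 ± 1.07 (adjusted p = 0.0223), but the call was lost with scan day as a block (adjusted p = 0.087) and without 4-week replicate 2 (adjusted p = 0.0742) or replicate 4 (adjusted p = 0.0573). Its other probes differed by -0.99 and -0.44. Foxp3, the factor of regulatory T cells, differed by -0.80 ± 0.29 (adjusted p = 0.0341), was well above background in the control on 1 array at 4 weeks, and lost the call with scan day as a block (adjusted p = 0.126) and without 10-day replicate 1 or 7 or 4-week replicate 2 or 6, with an adjusted p from 0.0546 to 0.136. Ctla4, an inhibitory receptor of T cells, and Il2, the T cell growth factor, were not well above background in the control on any 4-week array, and their control signals were at least 1.06-fold and 1.45-fold higher at 10 days.

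Apart from the genes already named, the largest rises in the NOD channel with groups that did not overlap were those of Cidec, a lipid droplet protein (3.05), Cgrrf1, a RING finger protein (3.04), the kinase Pdpk1 (3.01), Car3, a carbonic anhydrase of fat and muscle (2.96), Clec2d, a ligand of NK receptors (2.94), the growth factor Bmp7 (2.93) and Trim55, a muscle RING finger protein (2.70). The largest falls were those of Olfr1153, an olfactory receptor (-4.43), Kif14, a kinesin (-4.18), Krtap16-3, a hair keratin associated protein (-3.98), Ngb, neuroglobin (-3.80), Aplnr, the apelin receptor (-3.70), 4921507G05Rik (-3.69) and Dennd3, a guanine nucleotide exchange factor (-3.61). The value rests on 1 of several probes in some: other probes gave NOD differences of 0.72 for Dennd3, -2.01 for Trim55, -0.39 and 0.14 for Pdpk1, and -0.07, 0.24 and -1.48 for Kif14. Groups that did not overlap were found for 14.1% of all genes in this channel. With scan day as a block Cgrrf1 alone of these 14 kept the call (adjusted p = 0.0441); the others had an adjusted p from 0.0839 (Clec2d) to 0.613 (Cidec). Several moved about as far in the control, where groups without overlap were found for 26.8% of all genes, by 2.82 for Pdpk1, 2.52 for Clec2d, -4.55 for Olfr1153, -4.69 for Kif14 and -3.69 for Ngb.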

How the data were processed

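Dual-colour Agilent whole mouse genome arrays (2 dye channels) measured pancreatic lymph node RNA, with NOD in Cy3 and the NOD.B10 control in Cy5 per the labels. The authors deposited Agilent Feature Extraction output per array, whose processed signals are intensity values that the software had background-corrected and dye-normalized per the file headers, and a deposited table of log10 ratios, used as an alternative. Outlier spots and control spots were left out. Log2 ratios were taken from the processed signals, and channel signals were scaled between arrays (Aquantile). Probes that 4 or more arrays measured well above background, in either channel, were kept (40833 of 41174), and the brightest probe stood for a gene (28438 genes, of which 19260 had a symbol of the RefSeq gene table). Group means of all 6 ages over 35 arrays were fitted in limma 3.58.1 (R 4.3.3), and 4 weeks was contrasted with 10 days with Benjamini-Hochberg adjustment at 0.05. The fit was tested on simulated data.

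Genes were named by size among those called with separate groups of values and probes well above background on at least 4 arrays of each age (15 each way in the ratio, 10 in each channel), by smallest p in each of 37 lists (up to 4), and from a short fixed list. The members and lists were chosen with earlier results of these data known. Alternatives were other background corrections, scalings and filters, the deposited values, scan day, software version, scanner, replicate number, the acinar mean as a covariate, and each array left out. Replicate numbers did not pair arrays of the 2 ages. A gene that the rule names is not reported here.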

Additional observations from a re-analysis of the deposited data

Results flagged for a closer look

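In 288 groups of arrays looked at (107 genes and 37 lists at each age), 15 had an array far from the others by Dixon's criterion, and chance gives about 1 in 20.

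10-day replicate 3 was the array apart in 6 of them. On this array 7.55% of spots were flagged as outliers and left out, against 0.036% to 0.63% on the other 10-day arrays. It had the highest ratio in the liver list mean, at -1.39 against -4.34 to -3.09 on the other 10-day arrays. The same array was highest for Fbp1, at -1.49 against -4.60 to -3.90, for Serpinc1, at -1.50 against -4.52 to -3.27, and for Agt, at -1.36 against -3.72 to -2.73. It was also highest for Ifit1, at 0.09 against -0.61 to -0.40, and lowest for Il2, at -1.84 against 0.11 to 0.43.

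10-day replicate 7 was highest for Pnlip, at 1.99 against -3.86 to -1.43, and for Mt2, at -0.65 against -2.98 to -2.13, and lowest in the thymocyte list mean, at -0.23 against -0.09 to 0.01. Among the other 10-day arrays, replicate 4 was highest for Spib, at 0.63 against 0.16 to 0.34, replicate 6 lowest for Csf1r, at -0.16 against 0.07 to 0.17, and replicate 2 lowest for Sbno2, at 0.16 against 0.88 to 1.13.

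At 4 weeks, replicate 5 was lowest for Ambp, at -3.01 against 1.95 to 3.51, and highest for Fcmr, at -1.05 against -1.83 to -1.58. Replicate 3 was highest for Ighg1, at -0.09 against -2.94 to -2.38.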

How the results depend on the processing

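Of 142 gene results followed over the ratio and both channels, 76 kept direction and call under every setting run and 66 did not. The ratio count of 9660 genes was 4040 with a minimum size of 1, 6088 under a strict filter (both channels of all 13 arrays well above background), 6216 with scan day, 4169 with the software version and 2399 with the scanner as a block. The NOD count of 9073 was 5152, 4697, 10, 182 and 311 under these, and the control count of 14157 was 7138, 7487, 1838, 6321 and 4670, and 3213 with the acinar mean as a covariate. Leaving out each array gave 8601 to 10163 in the ratio, 8036 to 8815 in NOD and 13338 to 14399 in the control. Replicate numbers did not pair the arrays, and a replicate block gave 8950, 8493 and 13966. Setting each channel to its median raised the share of higher calls from 51.2% to 72.9% in NOD and from 52.0% to 72.3% in the control. 

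The direction turned in several results, and the cause was not tested. Among single genes and lists followed under every setting these were Jchain with the replicate block (0.069) and without one array (-0.20 to 0.13), Deaf1 (-0.99) and the nerve and glia list (-0.24) under the strict filter, where Deaf1 is read by another probe, and Pnlip (-1.22), Cela1 (-1.30), Gp2 (-0.22) and Cela2a (-0.75) with the acinar covariate. Cela1 also turned without 4-week replicate 2 (-0.11) or 4 (-0.17), in a range up to 1.88. With the software version as a block Hbb-y (-0.094), Il2 (-0.030), the mast cell list (-0.21) and, in the NOD channel, Cd74 (-0.30), Olfr1153 (0.23), Kif14 (0.90), Ngb (0.58) and Dennd3 (1.24) turned. With the scanner these were the germinal centre (-0.27), mast cell (-0.28), chemokine (-0.11) and glucocorticoid (0.21) lists and, in NOD, Trim55 (-0.35), Kif14 (1.24) and 4921507G05Rik (0.88). With normexp and loess the median of the interferon gamma list went from -0.14 to 0.01 and of the germinal centre list from 0.0045 to -0.037. With each array set to its channel median, NOD medians turned for the liver (-0.33 to 0.06), MHC class I (-0.03 to 0.63), cell cycle (-0.49 to 0.15), heat shock (-0.11 to 0.59), erythroid (-0.53 to 0.18), muscle (-0.34 to 0.04) and regulatory T cell (-0.04 to 0.28) lists, and control medians for oxidative phosphorylation (-0.19 to 0.79), ribosomal proteins (-0.02 to 1.31), cell cycle (-0.14 to 0.51) and extracellular matrix (-0.60 to 0.07). The signal over background in the control at 4 weeks limits the low genes.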
